A study of Mus musculus with 2 samples.

Results

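The small nucleolar RNA (snoRNA) host genes are 10 mouse genes, Gas5, Snhg1, Snhg3, Snhg4, Snhg5, Snhg6, Snhg7, Snhg8, Snhg11 and Snhg12, whose introns carry snoRNAs. They were taken by symbol, each symbol being matched to the Ensembl gene identifiers of the quantification tables with the version number removed. Of the 10, 6 (Gas5, Snhg3, Snhg5, Snhg6, Snhg11 and Snhg12) had a row among the 43346 mouse genes of the tables. Snhg1 and Snhg8 have an Ensembl identifier in the annotation used here (GENCODE M21) that matched no row, and Snhg4 and Snhg7 have a RefSeq span but no Ensembl identifier under those symbols, so no level of these 4 genes was analysed here. The material was neural tube of B6NCrl mouse embryos of both sexes, pooled, at embryonic day 13.5, and the labels name no treatment and no engineered allele. RNA-seq of total RNA, started from 10 ng and restricted to molecules over 200 bases by the labels, gave 2 libraries, biological replicates 1 and 2 of this single group. The design therefore holds no contrast between conditions, and the comparisons below are between genes, between transcripts, and between the replicate libraries.

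A snoRNA host gene is transcribed and spliced like a messenger RNA, and its snoRNAs are cut out of the removed introns. Box C/D snoRNAs guide ribose methylation of ribosomal and other RNAs, and box H/ACA snoRNAs guide conversion of uridine to pseudouridine. The spliced exons of many hosts code for little or no protein, and those translated from short reading frames are often removed by nonsense-mediated decay. Many hosts start within a pyrimidine run of the terminal oligopyrimidine type, which ribosomal protein genes also have. Gas5 was named for its accumulation in growth-arrested cells.

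The snoRNAs themselves place the 6 measured genes in classes. A box C (TGATGA) starting in the first 16 bases together with a box D (CTGA) starting in the last 15 was found in 8 of the 10 snoRNA entries of Gas5, in the 2 of Snhg5 and in the 1 of Snhg6. An ACA within the last 6 bases, the mark of the H/ACA class, was found in the 2 of Snhg3 and the 2 of Snhg11. Snhg12 held both kinds, 1 box C/D and 3 ACA entries, with 1 entry in which neither search found a match. The entries are those of GENCODE M21 on GRCm38, in which Snord80 of Gas5 and Snora16a of Snhg12 are each entered under 2 overlapping identifiers, so that the 22 entries of the 6 genes lie at 20 separate loci. The 9 sequences that follow are shown because transcripts described further on either splice them out or keep them. Capitals mark box C and box D, or the ACA.
Snord47: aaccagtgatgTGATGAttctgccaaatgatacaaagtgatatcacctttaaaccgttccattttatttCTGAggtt
Snord80: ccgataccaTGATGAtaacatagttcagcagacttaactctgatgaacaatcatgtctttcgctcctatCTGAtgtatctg
Gm25789: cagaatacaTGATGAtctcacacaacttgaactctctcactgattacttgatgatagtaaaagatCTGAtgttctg
Snord50a: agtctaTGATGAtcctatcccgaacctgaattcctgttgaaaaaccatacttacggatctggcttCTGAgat
Snord50b: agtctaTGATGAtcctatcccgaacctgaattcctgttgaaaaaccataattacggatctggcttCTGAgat
Snord87: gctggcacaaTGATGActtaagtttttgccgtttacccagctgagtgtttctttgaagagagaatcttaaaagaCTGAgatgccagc
Snord99: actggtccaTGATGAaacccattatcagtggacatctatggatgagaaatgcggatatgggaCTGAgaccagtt
Snora73a: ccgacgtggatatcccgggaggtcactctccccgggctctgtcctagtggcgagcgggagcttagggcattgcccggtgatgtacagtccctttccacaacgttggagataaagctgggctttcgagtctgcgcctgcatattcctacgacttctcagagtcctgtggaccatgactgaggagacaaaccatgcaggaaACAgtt
Gm25187: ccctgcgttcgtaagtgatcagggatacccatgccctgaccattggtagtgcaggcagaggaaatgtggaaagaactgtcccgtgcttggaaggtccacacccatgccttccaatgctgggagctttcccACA

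Snord47 lies at chr1:161038082-161038158, Snord80 at chr1:161037601-161037681 and Gm25789 at chr1:161038308-161038383, all on the plus strand in Gas5. Snord50a (chr9:88521529-88521600) and Snord50b (chr9:88521797-88521868) lie on the minus strand in Snhg5 and are identical at 71 of 72 positions. Counted from 1 at the 5′ end, Snord50b differs from Snord50a by C50A. Snord87 (chr1:9942463-9942549, minus strand) is the snoRNA of Snhg6, and Snord99 (chr4:132310691-132310764, plus strand) is the box C/D snoRNA of Snhg12. Snora73a (chr4:132352775-132352979, minus strand), a long H/ACA snoRNA known for its part in cutting the ribosomal RNA precursor, and its neighbour Snora73b in Snhg3 are identical at 198 of 205 positions. Gm25187 (chr2:158378222-158378354, plus strand) and Gm25129, both of 133 bases, are the snoRNA entries of Snhg11, and without gaps they share 56 positions.

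The libraries held 34125110 and 22311849 expected counts in replicates 1 and 2. The tissue label was checked against its markers: all 6 neuronal markers, all 6 neural progenitor markers and all 6 Hox genes of the trunk spinal cord reached at least 1 TPM (a level scaled to a fixed total per library and corrected for transcript length) in both libraries. Red cell, mesenchyme, endothelial and macrophage markers were detected as well, so the tissue was not neural alone, and in bulk RNA fewer cells of a type and less RNA per cell cannot be told apart. Summed over 5 skeletal muscle markers replicate 1 had 47.0 TPM and replicate 2 had 128 TPM. Over 4 epidermal markers replicate 1 had 3.85 TPM and replicate 2 had 13.8 TPM. Over 6 markers of sensory ganglia and neural crest replicate 1 had 765 TPM and replicate 2 had 604 TPM.

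All 6 genes with a row reached 1 TPM in each library. Among all mouse genes 15023 (34.7%) passed the same limit, and among the 5694 long noncoding genes 823 (14.5%) did. The median level of the 6 genes was 77.2 TPM, that of all detected mouse genes 15.9 TPM, and that of the detected long noncoding genes 3.06 TPM. Summed over the 6 genes, replicate 1 had 1116 TPM and replicate 2 had 996 TPM, and Snhg11 and Gas5 alone made up 82.2% of that sum in replicate 1 and 78.5% in replicate 2.

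Gas5 (ENSMUSG00000053332.9, chr1:161034422-161038539, plus strand) carries snoRNAs at 9 loci, and 8 of its 10 snoRNA entries matched the box C and box D search. The other 2 entries matched neither search and were left without a class. Replicate 1 had 412 TPM of it and replicate 2 had 384 TPM, a mean of 398 ± 20.4 TPM (SD, n = 2). That placed it at rank 297 of the 43346 mouse genes by mean level and at rank 5 of the 5694 long noncoding genes. Snhg5 (ENSMUSG00000097195.4, chr9:88521050-88522929, minus strand), the host of the Snord50 pair, reached 72.7 TPM in replicate 1 and 88.8 TPM in replicate 2, a mean of 80.7 ± 11.4 TPM (SD, n = 2). Snhg6 (ENSMUSG00000098234.3, chr1:9941959-9944118, minus strand), the host of Snord87, had 74.6 TPM in replicate 1 and 73.0 TPM in replicate 2, a mean of 73.8 ± 1.15 TPM (SD, n = 2). Among long noncoding genes Snhg5 ranked 22 and Snhg6 ranked 25.

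Of the H/ACA hosts, Snhg11 (ENSMUSG00000044349.11, chr2:158375638-158386145, plus strand) was the most abundant of the 6 genes. It had 504 TPM in replicate 1 and 398 TPM in replicate 2, a mean of 451 ± 75.1 TPM (SD, n = 2) and rank 251 among mouse genes. GENCODE M21 lists it as protein-coding, and it was therefore left out of the long noncoding ranks. Snhg3 (ENSMUSG00000085241.3, chr4:132348014-132353686, minus strand), the host of the Snora73 pair, had 36.6 TPM in replicate 1 and 37.4 TPM in replicate 2, a mean of 37.0 ± 0.523 TPM (SD, n = 2) and rank 51 among long noncoding genes. Snhg12 (ENSMUSG00000086290.4, chr4:132308623-132311024, plus strand), with snoRNAs of both classes, was lowest, at 15.4 TPM in replicate 1 and 14.7 TPM in replicate 2, a mean of 15.01 ± 0.481 TPM (SD, n = 2) and rank 111 among long noncoding genes. Snhg3 and Snhg12 lie on the same chromosome with opposite orientation.

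**Figure D1:**
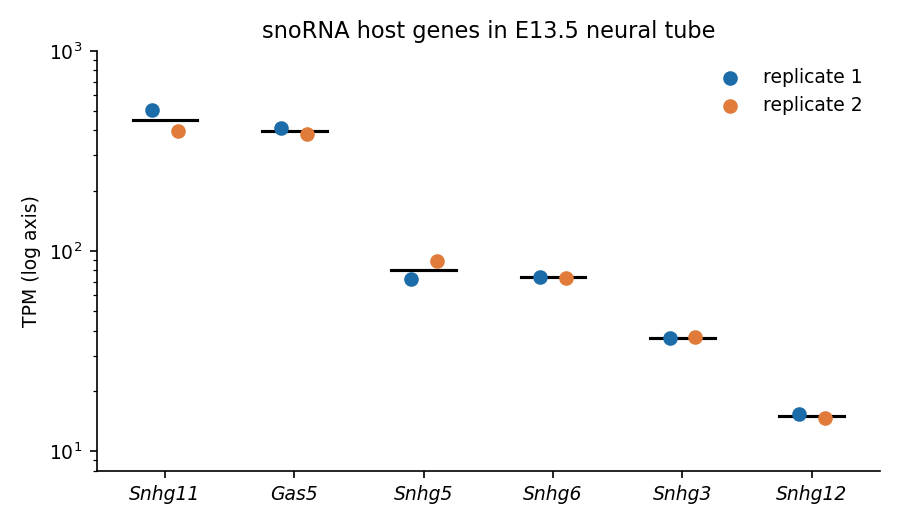
Level in TPM (log axis) of the 6 snoRNA host genes with a row in the tables. Points are the 2 replicate libraries and the black line is their mean; Snhg11 and Gas5 stand above 380 TPM in both libraries and the other 4 genes below 90 TPM.

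By mean level the order was Snhg11, Gas5, Snhg5, Snhg6, Snhg3 and Snhg12. Gas5 was 4.93-fold above Snhg5, Snhg6 was 1.99-fold above Snhg3, and Snhg3 was 2.46-fold above Snhg12, and in these 3 pairs the values of the libraries did not overlap. Snhg11 and Gas5 overlapped, since Snhg11 in replicate 2 lay below Gas5 in replicate 1. Snhg5 and Snhg6 also overlapped and changed places, Snhg6 being higher in replicate 1 and Snhg5 in replicate 2. The order of the means was the same on posterior mean TPM. It was also the same on FPKM and on TPM rescaled to mouse genes. These are changes of unit that multiply all genes of a library by the same factor. They cannot change the order within a library and are no check of it.

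Some genes share their locus. Snhg3 overlaps the protein-coding gene Rcc1 over 5592 bases on the same strand, and Rcc1 had 26.7 TPM in replicate 1 against 27.5 TPM in replicate 2. The posterior SD of the expected count of Snhg3 was 1.74% of it in replicate 1 and 2.35% in replicate 2, and that of each of the other 5 genes was below 1%. On the opposite strand, Snhg3 overlaps the noncoding gene Gm17300 over 1611 bases, Gas5 overlaps Zbtb37 over 428 bases and Snhg6 overlaps Mcmdc2 over 127 bases. Gm17300 had 2.87 TPM in replicate 1 against 3.77 TPM in replicate 2. Zbtb37 had 8.99 TPM in replicate 1 against 8.92 TPM in replicate 2, and Mcmdc2 had 1.74 TPM in replicate 1 against 1.98 TPM in replicate 2. The sources used here do not say whether counting used strand, so reads in the overlaps with opposite-strand genes are uncertain.

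The replicate libraries were then set against each other to see how far the levels of the 6 genes varied between them. The test was a two-sided exact binomial test of rounded expected counts with Benjamini-Hochberg adjustment over 17428 genes, which compares these libraries with counting noise and not conditions. None of the 6 genes differed by 2-fold, while 390 of the 17428 genes (2.24%) passed an adjusted p of 0.05 with a 2-fold difference or more. At 1.5-fold 705 genes (4.05%) and again none of the 6 passed. With the adjusted p alone and no fold limit, 4259 genes (24.4%) and 3 of the 6 were called. Higher in replicate 1 were 2 of the 6 against 12.4% of all genes, and lower in replicate 1 was 1 of the 6 against 12%. The 3 called, Snhg11, Gas5 and Snhg5, had the most counts of the 6, and the test detects smaller ratios at higher counts. Larger absolute log2 ratios than theirs were found in 27.3%, 54.7% and 34.2% of all genes, in that order. None of these shares is matched for counts.

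Snhg11 had 43559 counts in replicate 1 and 24170 in replicate 2, a log2 ratio of replicate 1 over replicate 2 of 0.26 ± 0.0116 after scaling for library size (counting SE; exact test, adjusted p = 5.5e-108). On TPM the log2 ratio of Snhg11 was 0.34, and the effective length used for it was 3818 bases in replicate 1 and 4235 bases in replicate 2. Gas5 had 5296 counts in replicate 1 and 3232 in replicate 2, a log2 ratio of 0.12 ± 0.0322 (counting SE; exact test, adjusted p = 0.0017). Snhg5 had 1077 counts in replicate 1 and 825 in replicate 2, a log2 ratio of -0.21 ± 0.0667 (counting SE; exact test, adjusted p = 0.0119). As folds of replicate 1 over replicate 2 these were 1.20 for Snhg11, 1.09 for Gas5 and 0.866 for Snhg5.

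For Snhg6, Snhg3 and Snhg12 no difference was detectable at this depth. Their log2 ratios were 0.03 ± 0.0868, 0.03 ± 0.137 and 0.04 ± 0.164 (counting SE), with counts of 702, 283 and 196 in replicate 1 and 455, 183 and 126 in replicate 2. The exact test gave them adjusted p of 0.852, 0.913 and 0.918. The median absolute log2 ratio was 0.08 over the 6 genes and 0.14 over all genes tested. The genes tested reach down to a mean of 10 counts, where counting noise is larger, and these medians are not matched for counts. Beside these ratios, all 5 skeletal muscle markers and all 4 epidermal markers were called lower in replicate 1 at 2-fold. Of the 6 sensory ganglion and neural crest markers 1 was called at 2-fold, and it was lower in replicate 1, while the list's median log2 ratio was 0.26. The part of tissue makeup in the ratios of the host genes was not tested.

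**Figure D2:**
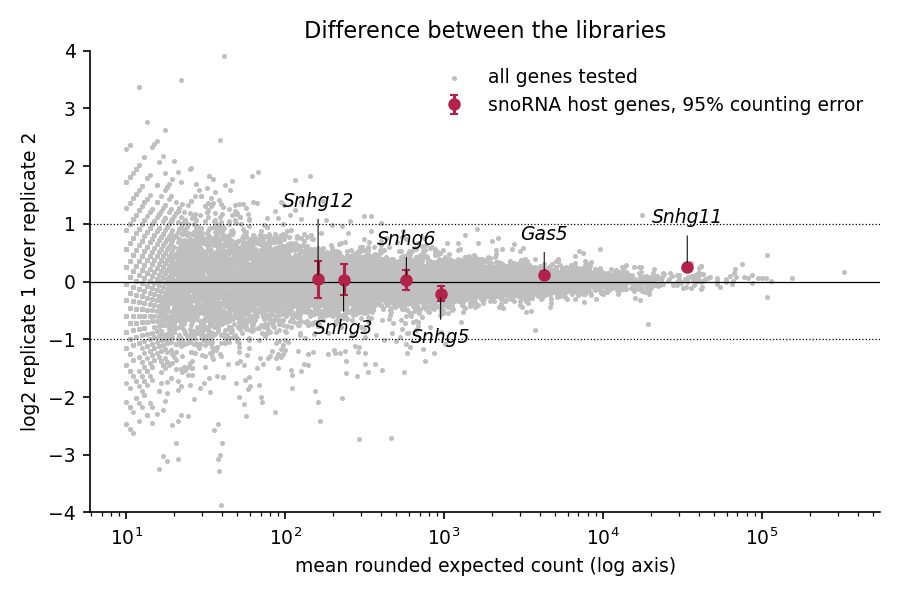
Log2 ratio of replicate 1 over replicate 2 against the mean rounded expected count (log axis) for all 17428 genes tested (grey) and the 6 snoRNA host genes (red, bars are 95% counting error). Dotted lines mark a 2-fold difference, which none of the 6 genes reached, and 22 grey genes lie outside the vertical axis.

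The tables also divide each gene's level among its transcripts as isoform percent, the share of the gene's TPM given to a transcript. The same transcript had the highest share in both libraries for all 6 genes. In Snhg3 and Snhg6 it was a form with every snoRNA in its introns. Snhg3-204 took 83.1% in replicate 1 and 86.3% in replicate 2, and Snhg6-203 took 53.6% in replicate 1 and 45.5% in replicate 2. Snhg6-204 followed with 20.2% in replicate 1 and 20.3% in replicate 2. In Snhg12 the top form Snhg12-206, of 5 exons with every snoRNA in its introns, took 63.1% in replicate 1 and 50.4% in replicate 2.

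Snhg11 had a long and a short main form. Snhg11-201, of 5864 bases and 5 exons, took 56.4% in replicate 1 and 65.4% in replicate 2. Snhg11-205, of 1329 bases and 6 exons, which the annotation classes as a target of nonsense-mediated decay, took 35.9% in replicate 1 and 29.3% in replicate 2. In TPM, Snhg11-205 was at 181 in replicate 1 and 117 in replicate 2, and Snhg11-201 was at 285 in replicate 1 and 260 in replicate 2. The short form thus held 64.5 of the 106 TPM by which Snhg11 was higher in replicate 1, and the long form held 24.3. This split holds for TPM, which corrects for length, and rests on the quantifier's division of reads among overlapping transcripts. Before scaling for library size, Snhg11-201 had 37101 expected counts in replicate 1 and 21508 in replicate 2. Snhg11-205 had 5039 in replicate 1 and 2057 in replicate 2. The split in reads was not computed and need not be the same.

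In Gas5 the leading forms were Gas5-210 with 39.4% in replicate 1 and 36.9% in replicate 2, and Gas5-224 with 25.4% in replicate 1 and 21.2% in replicate 2. Both have all the snoRNAs in their introns, and 11 and 12 exons. Gas5-213, which keeps an intron that holds no snoRNA, took 9.50% in replicate 1 and 11.2% in replicate 2. RefSeq gives Gas5 promoters for starts that lie 565 bases apart. Of the 25 transcripts, 9 begin more than 150 bases from either start and took 9.97% of Gas5 TPM in replicate 1 and 16.5% in replicate 2. The 15 that begin within 150 bases of the downstream start took 89.6% in replicate 1 and 83.1% in replicate 2. The 1 that begins within 150 bases of the upstream start took 0.468% in replicate 1 and 0.321% in replicate 2. The 50 bases before each start and the 30 bases from it on are shown for this contrast (RefSeq, GRCm38.p6, plus strand, chr1:161035116-161035195 for the downstream start and chr1:161034551-161034630 for the upstream start), with matches to TATANA on either strand in capitals.
Gas5 downstream start: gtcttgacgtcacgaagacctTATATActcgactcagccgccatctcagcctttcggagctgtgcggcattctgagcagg
Gas5 upstream start: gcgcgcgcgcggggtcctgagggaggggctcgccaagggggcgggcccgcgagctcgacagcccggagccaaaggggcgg

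The downstream start has TATATA beginning 29 bases before it and the upstream entry has no match anywhere in its 300 bases. The leading form Gas5-210 begins 99 bases before the downstream start, so this TATATA lies inside its first exon. A match to TATANA on either strand between 40 and 20 bases before the start was found in 1182 of 32851 RefSeq promoters (3.60%). Of the 8 snoRNA host genes with a promoter entry, 5 had an entry with such a match, namely Gas5, Snhg1, Snhg7, Snhg8 and Snhg12. In Snhg5 the match lay 23 bases before the start and ran past the end of that window, in Snhg3 it lay 22 bases after the start, and Snhg11 had none. Anywhere in the 300 bases, the motif was found in 24.7% of all promoters. The motif and window were chosen after the letters of these promoters had been seen, so the counts describe the entries and no test was made.

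Transcripts that keep an intron keep the snoRNA inside it. In Gas5, 16 of the 25 transcripts hold a whole snoRNA inside an exon, all 16 of them classed as retained-intron forms. Together they took 21.2% of Gas5 TPM in replicate 1 and 25.8% in replicate 2. The highest by mean were Gas5-206, which keeps Gm25789, with 4.11% in replicate 1 and 3.84% in replicate 2, and Gas5-222, which keeps Snord78 and 2 other snoRNAs, with 3.62% in replicate 1 and 3.98% in replicate 2. Their order differed between the libraries. Gas5-218 keeps 6 snoRNAs in a row and had 2.77% in replicate 1 and 3.34% in replicate 2. Gas5-202, which keeps Snord47, had 1.56% in replicate 1 and 2.77% in replicate 2, and Gas5-223, which keeps Snord80, had 1.84% in replicate 1 and 2.12% in replicate 2.

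**Figure D3:**
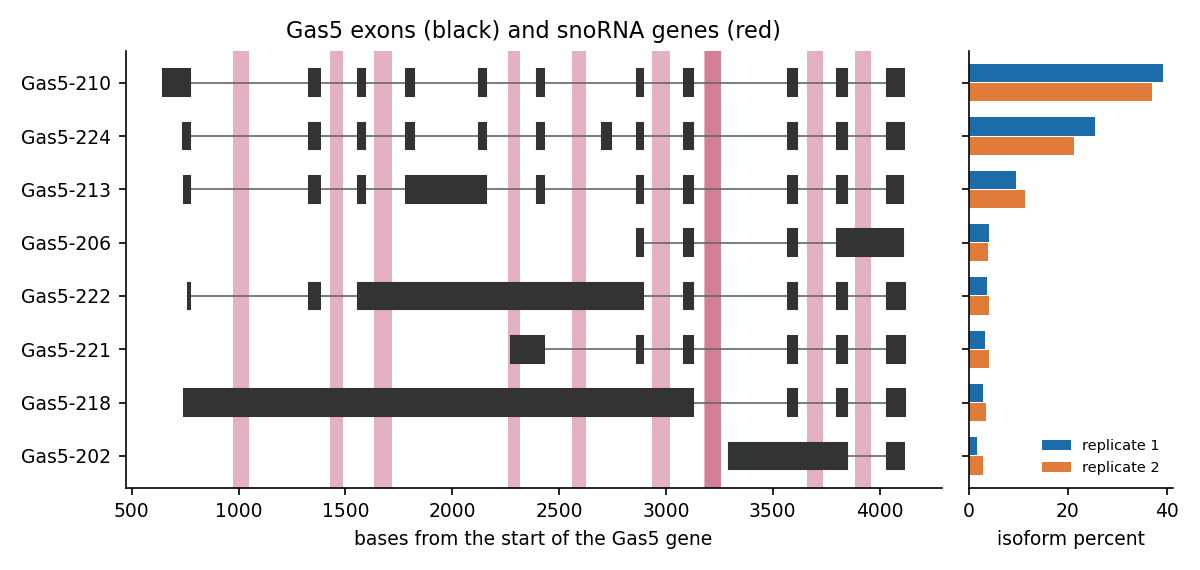
Left, exons (black) of the 8 Gas5 transcripts of highest mean isoform percent and the snoRNA genes (red bands; the darker band is entered under overlapping identifiers), in bases from the start of the gene; right, isoform percent of each transcript in replicates 1 and 2. The spliced forms Gas5-210 and Gas5-224 have every band in an intron and the longest bars, while in Gas5-218 an exon covers 6 bands.

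Snhg5 had the highest share of snoRNA-keeping forms by mean over the libraries. Snhg5-204, which keeps Snord50a, took 29.2% in replicate 1 and 34.8% in replicate 2, and Snhg5-205, which keeps Snord50b, took 21.3% in replicate 1 and 16.9% in replicate 2. Together they held 50.4% of Snhg5 TPM in replicate 1 and 51.7% in replicate 2. Snhg5-206, also classed as a retained intron, took 21.1% in replicate 1 and 19.0% in replicate 2. Its length was 910 bases in the tables and 1221 in GENCODE M21, and a further 7.23% in replicate 1 and 18.7% in replicate 2 fell on 2 transcripts without an M21 entry. Over the transcripts of equal length alone, chosen as a limit after the values were seen, the snoRNA-keeping share of Snhg5 was 70.4% in replicate 1 and 83.0% in replicate 2.

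In Snhg12, 5 of 7 transcripts keep a snoRNA by their M21 exons and took 36.9% of its TPM in replicate 1 and 45.4% in replicate 2. The largest was Snhg12-205, which keeps Snord99, with 20.3% in replicate 1 and 25.6% in replicate 2. Its length differs by 2 bases between the tables and M21. Snhg12-201 has 890 bases as quantified against 1213 in M21, and Snhg12-204 has 364 against 1416, so what these 2 keep is uncertain. Without the transcripts of unequal length, 2 of 3 keep a snoRNA, and the share of Snhg12 was 16.5% in replicate 1 and 23.4% in replicate 2. In Snhg11 a single form, Snhg11-202 with Gm25187, held 3.15% in replicate 1 and 2.95% in replicate 2. No transcript of Snhg3 or Snhg6 holds a whole snoRNA in an exon. Over all 6 genes the snoRNA-keeping forms held 13.1% of the summed TPM in replicate 1 and 16.4% in replicate 2. These shares rest on the quantifier's division of reads among overlapping transcripts. Whether they reflect unspliced precursor RNA was not tested.

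**Figure D4:**
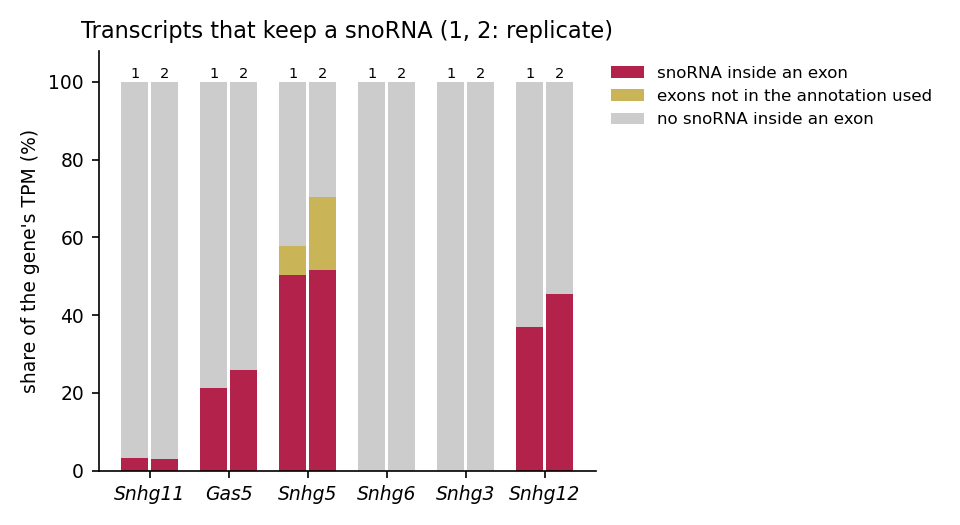
Share of each gene's TPM (percent) in transcripts that hold a whole snoRNA inside an exon (red), in transcripts without an entry in GENCODE M21 (yellow) and in the others (grey), for replicates 1 and 2. Exons were taken from GENCODE M21, also where the transcript length differs. The red share is about 50% in Snhg5, 36.9% and 45.4% in Snhg12, 21.2% and 25.8% in Gas5, near 3% in Snhg11 and 0 in Snhg6 and Snhg3.

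The snoRNAs were all but absent from the tables as genes of their own. Of the 22 snoRNA entries of the 6 hosts, 20 had a row, and for 13 of these, all Gas5, Snhg5 and Snhg6 rows among them, the effective length (the number of positions at which a fragment can start, here the length minus 99 bases) was 0. No read can be assigned to such a row, so its 0 is not a measurement. The remaining 7, in Snhg3, Snhg11 and Snhg12, summed to 8.46 expected counts in replicate 1 and 6.69 in replicate 2, against 43559 and 24170 for Snhg11 alone. Gm25187 had 3.28 counts in replicate 1 and 6.35 in replicate 2, and no other of the 7 exceeded 3 counts in either library. Over all 1525 snoRNA and scaRNA genes in the tables, 460 had an effective length of 0, and 909 of the other 1065 had no count in either library. The labels give a size selection above 200 bases, and these counts are no measure of snoRNA abundance in the tissue.

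The region of Snhg7 has 1 row that calls for care. The identifier ENSMUSG00000097052.1, which GENCODE M21 names Snora43 and gives 139 bases within the RefSeq span of Snhg7, stands in the tables with 2 transcripts of 741 and 2366 bases. It had 9.89 TPM in replicate 1 and 7.70 TPM in replicate 2, from 260 and 135 expected counts. Both transcripts are longer than the annotated snoRNA and the row carries no name, so its level was taken neither as that of a snoRNA nor as that of Snhg7. By its M21 class the row is among the 1525 snoRNA and scaRNA genes counted above.

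Other noncoding snoRNA host genes were detected in the same way: 8 of 11 listed had a row and all 8 reached 1 TPM in both libraries, with a median of 18.9 TPM. Snhg14 had 75.3 TPM, Snhg20 61.1 TPM and Zfas1 43.9 TPM on average, and Snhg18 was lowest at 4.88 TPM. The proteins that bind the 2 snoRNA classes were all detected. The 4 core proteins of box C/D particles had a median of 144 TPM, led by Snu13 at 183 TPM and Nop56 at 174 TPM, with the methyltransferase Fbl (fibrillarin) lowest at 65.5 TPM. The 4 core proteins of H/ACA particles had a median of 61.0 TPM, led by Nop10 at 127 TPM, with the pseudouridine synthase Dkc1 (dyskerin) at 45.7 TPM and Gar1 lowest at 35.1 TPM. The 11 assembly factors had a median of 30.7 TPM, from Ruvbl2 at 71.4 TPM to Naf1 at 1.51 TPM. None of the genes on these lists was called at 2-fold between the libraries, against 390 of 17428 genes (2.24%). With lists this short, the lack of calls does not set them apart from that share.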

How the data were processed

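Total RNA-seq of 2 neural tube libraries (replicates 1 and 2 of 1 group) was deposited as gene and transcript tables on mm10 with the GENCODE M4 annotation, per the deposited readme text. The tables hold the authors' expected counts, TPM, FPKM, isoform percent and transcript lengths, per the file headers. Neither the aligner, the quantifier nor the use of strand is given in the sources used here. RNA was extracted with the Ambion mirVana kit, spike-ins were added and the SMARTer Ultra Low RNA kit manual is linked, per the labels' protocols. Rows were matched by Ensembl identifier, and exon structures and snoRNA positions were taken from GENCODE M21, which names 42462 of the 43346 mouse genes. TPM and isoform percent were used as the authors deposited them, and 13.0% of TPM in replicate 1 and 12.6% in replicate 2 fell on features that are not mouse genes.

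Expected counts were rounded and 0.5 was added for log2 ratios. Effective library sizes came from edgeR 4.0.16 (TMM), with DESeq2 1.42.0 size factors as an alternative. Genes with a mean count of at least 10 were tested with SciPy 1.17.1, and the procedure was tested on simulated data. With 1 library a side, counting error is the only error estimated for the ratios. Other sources of difference between the libraries are not included in it, and reads without molecular identifiers are not independent molecules. An SD over 2 libraries is imprecise, and nothing in the labels says which embryos were pooled into each. All 10 genes, up to 3 leading transcripts and the snoRNA entries of each were to be named, and of each further list at most the 3 highest and the lowest genes. Transcripts named for a snoRNA they keep, the Snhg7-region row, genes that overlap a host, Dkc1 and Fbl as the enzymes, and the TATANA search were chosen after their values or letters were seen. The genes and lists were chosen with earlier results of these data known. No snoRNA sequence of Snhg4 and no promoter of Snhg4 or Snhg6 was used here.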

Additional observations from a re-analysis of the deposited data

How the results depend on the processing

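The single group allows no comparison of conditions, and the precision of each level rests on 2 libraries. No paired analysis was possible because both libraries belong to 1 group. The summed TPM of the 6 genes, 1056 on average, was 1211 on TPM rescaled to mouse genes and 689 in FPKM, both changes of unit. The genes called between the libraries numbered 390 at 2-fold and 705 at 1.5-fold, and none of the 6 was called at either. Without a count minimum 504 genes were called. Changes of unit aside, the other recomputed summary values moved by less than 1.5 times for counts and by less than the SD between the libraries for levels and shares. Leaving out 1 of 2 libraries always moves a mean by less than that SD, so those settings are no check. The median log2 ratio of the 6 genes lay between 0.02 and 0.05 under the scalings tried. Among single genes, the mean top transcript share of Snhg3 fell from 84.7% to 80.6% on posterior mean isoform percent, more than its SD of 2.27. Snhg5 stood above Snhg6 by mean and in replicate 2 and below it in replicate 1. With transcripts of equal length in both annotations only, a setting added after the data were seen, the mean snoRNA-keeping share was 76.7% for Snhg5 and 19.9% for Snhg12, against 51.1% and 41.2%. Counting any overlap of an exon with a snoRNA gave 27.1% for Gas5 and 4.48% for Snhg3.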

Other observations

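Protein-coding genes also host snoRNAs. The annotation places a snoRNA inside 274 protein-coding genes of the tables, of which 247 (90.1%) reached 1 TPM in each library, with a median of 26.0 TPM over all 274. The highest were Hspa8, a chaperone, at 2282 TPM, Atp5b, an ATP synthase subunit, at 1637 TPM, and Rpl32, a ribosomal protein, at 997 TPM. Of the 256 tested between the libraries 4 were called at 2-fold, against 390 of 17428 genes (2.24%).

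Nonsense-mediated decay removes many spliced host RNAs, and all 14 listed genes of that pathway reached 1 TPM in each library, at a median of 26.9 TPM. The exon junction proteins Eif4a3 (199 TPM), Magoh (112 TPM) and Rbm8a (69.1 TPM) were highest and Upf2 was lowest at 6.37 TPM. None was called at 2-fold between the libraries, against 390 of 17428 genes (2.24%), and a list this short is not set apart from that share.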
